A study of Mus musculus with 6 samples.

Results

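The 9 genes described here encode mitogen-activated protein (MAP) kinases of the ERK, JNK and p38 families and the kinases directly above p38, and they were taken by name from the deposited table of 55416 genes. They were Mapk3 for the ERK family, Mapk8 and Mapk9 for JNK, Mapk11, Mapk12, Mapk13 and Mapk14 for p38, and Map2k3 and Map2k6 for the MAP2K tier. All 9 were found in the table and all 9 passed the filter on low counts.

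RNA was sequenced from primary mouse chondrocytes transfected with a scrambled siRNA (siNC, 3 libraries) or an siRNA against Pkm2 (siPkm2, 3 libraries). The siRNA dose in the supplementary methods was 50 nM, and knockdown was checked there at 48 h, while for the sequencing the methods refer to an earlier report. No IL-1β or other agent is named for the sequenced cultures. The genotype label of siNC was wild type (WT), and that of siPkm2 was PKM2 knockdown in replicate 1, but PKM3 knockdown and PKM4 knockdown in replicates 2 and 3, whose titles also read siPKM2. The cells came from neonatal knee joints by the labels and from the joints of adult mice by the supplementary methods, and no source states how many animals were pooled. The paper states in general that experiments were repeated independently, but the labels do not say whether these libraries came from separate cultures or animals, so p-values measure the spread between these libraries, which may be technical.

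The libraries held 22317065 to 25691096 estimated counts. Replicate 2 of both groups stood apart. The summed level of 10 chondrocyte markers (collagen II, aggrecan, Sox9 and others) was 4290 TPM in siNC replicate 2 and 5730 TPM in siPkm2 replicate 2, against 16300 to 20900 TPM in the other libraries. The same 2 libraries had the highest sums of 8 macrophage markers, at 118 and 87.8 TPM against 11.4 to 26.4 TPM elsewhere, made mostly of Cd68 and Cd14 in these 2. Of those 8 genes Adgre1, Ptprc, Tyrobp and Fcer1g were below the filter, and Lyz2 was highest in replicate 3 of both groups. Csf1r was highest in replicate 2 of siNC but in replicate 3 of siPkm2. A sum of 15 interferon-stimulated genes was 78.8 and 124 TPM in siNC replicates 1 and 3, 3270 TPM in siNC replicate 2 and 1690 to 6500 TPM in siPkm2. Osteoblast markers (7 genes) summed to 2080 to 13600 TPM in siNC and 755 to 4660 TPM in siPkm2, both highest in replicate 2. That sum was made mostly of Spp1, at 2420, 9600 and 1360 CPM in siNC replicates 1, 2 and 3. The other tested osteoblast markers, Ibsp, Sp7, Alpl and Runx2, were instead lowest in replicate 2 of siNC. Ibsp, for example, had 339, 19.7 and 190 CPM there. In siPkm2, Ibsp, Sp7 and Alpl were also lowest in replicate 2, and Runx2 in replicate 3. Synovial fibroblast markers (8 genes) summed to 1340 to 2590 and 1070 to 2440 TPM in siNC and siPkm2, a sum made mostly of Col1a1 and Col3a1. Of the 7 of them that were tested, 3 were higher in siPkm2 with the replicate block and 0 lower, against 12.3% and 10.8% of all genes. The rest did not pass and went both ways. Thy1 and Col1a1 were lower, by log2 fold changes of -0.92 and -0.62 with the block (edgeR adjusted p = 0.108 and 0.111). Dpp4 and Col3a1 were higher, by 1.07 and 0.23 (edgeR adjusted p = 0.059 and 0.242). Prg4 had 15.9 to 23.6 CPM across siNC and 41.5 to 133 CPM across siPkm2 (log2 fold change with the block 2.15, edgeR adjusted p = 0.0271), while Pdpn and Cd34 were higher by 1.19 and 0.49 (edgeR adjusted p = 0.0272 and 0.0274) with overlapping libraries. Endothelial markers (6 genes) and muscle markers (6 genes) reached at most 3.15 and 7.39 TPM. The part of these differences in the results below was not tested unless a value without replicate 2 is given, and in bulk RNA a change in the number of cells of a type cannot be told apart from a change of RNA per cell. In siNC replicates 1, 2 and 3 the targeted gene, Pkm, had 2335, 2746 and 1674 CPM (counts scaled to library size with TMM factors), against 336, 541 and 309 CPM in siPkm2. Each library thus matched its title at the level of the whole gene, which does not separate the PKM1 and PKM2 isoforms.

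MAP kinases are the last tier of a relay in which a MAP3K phosphorylates a MAP2K, and the MAP2K phosphorylates a threonine and a tyrosine of the MAP kinase. ERK answers mainly to growth factors, while JNK and p38 answer to inflammatory cytokines and stress. In cartilage these pathways are known for carrying the IL-1β signal to matrix-degrading enzymes. Their activity is set by phosphorylation, which a transcript level does not measure.

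In CPM the groups did not overlap for Map2k6, Map2k3, Mapk14 and Mapk12, all among the 6 p38-arm genes of the 9, and Mapk12 did overlap in TPM. Of all genes tested, 12% were fully higher and 12.3% fully lower in siPkm2. Map2k6, which encodes the p38 activator MKK6, was 3.81-fold lower in siPkm2 than in siNC by group mean. The other p38 activator, Map2k3 (MKK3), was 1.48-fold higher, and Mapk14, which encodes p38α, was 1.54-fold higher. Mapk3 (ERK1), Mapk8 (JNK1) and Mapk9 (JNK2) differed between the groups by less than the SD of either group in CPM.

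Positions are on GRCm38 from GENCODE M21, matched by Ensembl identifier. Map2k3 (ENSMUSG00000018932) lies on chromosome 11 from 60932033 to 60952811 and Map2k6 (ENSMUSG00000020623) on the same chromosome from 110399122 to 110525522, both on the plus strand. The p38 genes form 2 neighbouring pairs. Mapk14 (ENSMUSG00000053436, chromosome 17 from 28691329 to 28748406) and Mapk13 (ENSMUSG00000004864, 28769297 to 28780233) are both on the plus strand, 20890 bases apart. Mapk12 (ENSMUSG00000022610, chromosome 15 from 89130584 to 89140703) and Mapk11 (ENSMUSG00000053137, 89142486 to 89149628) are both on the minus strand, 1782 bases apart. Mapk3 (ENSMUSG00000063065) is on chromosome 7 from 126759601 to 126765819, Mapk8 (ENSMUSG00000021936) on chromosome 14 from 33377898 to 33447158, and Mapk9 (ENSMUSG00000020366) on chromosome 11 from 49846751 to 49886421. A short gene model, AC170998.1, lies inside Mapk14 on the same strand, and 2 processed pseudogenes lie inside Mapk8. How reads were divided there was not tested.

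The promoter windows of the 3 genes that passed the test with the replicate block are shown here, since 2 sister kinases of the same step, Map2k3 and Map2k6, moved in opposite directions. Each window runs from 250 bases before to 50 bases after the first listed start, 5′ to 3′ on the gene's strand, and was taken from RefSeq on GRCm38.p6. Capitals mark matches to any of 6 motifs, each sought on both strands. The GC box, bound by Sp1 proteins, was spelled GGGCGG. The motif bound by the factor NF-Y was spelled CCAAT. The CRE, bound by CREB and ATF proteins, was spelled TGACGTCA. The AP-1 site, bound by Jun and Fos proteins, was spelled TGACTCA. The E-box, bound by Myc and Max among others, was spelled CACGTG. The TATA box was spelled TATAAA. No motif contains another. Windows were listed for 8 of the 9 genes, Mapk3 having none.
Map2k6 (chr11:110398852-110399151, plus strand): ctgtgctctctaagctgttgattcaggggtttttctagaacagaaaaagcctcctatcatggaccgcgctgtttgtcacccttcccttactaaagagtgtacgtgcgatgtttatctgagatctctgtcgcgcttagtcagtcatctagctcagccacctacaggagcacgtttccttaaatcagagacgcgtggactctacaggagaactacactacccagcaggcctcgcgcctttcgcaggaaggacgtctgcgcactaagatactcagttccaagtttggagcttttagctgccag
Map2k3 (chr11:60931804-60932103, plus strand): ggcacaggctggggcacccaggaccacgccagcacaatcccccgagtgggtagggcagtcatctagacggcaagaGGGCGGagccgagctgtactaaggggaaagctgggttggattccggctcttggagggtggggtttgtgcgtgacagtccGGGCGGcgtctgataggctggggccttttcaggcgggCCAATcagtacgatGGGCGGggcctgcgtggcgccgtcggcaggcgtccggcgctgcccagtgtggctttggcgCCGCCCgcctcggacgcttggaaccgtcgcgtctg
Mapk14 (chr17:28691092-28691391, plus strand): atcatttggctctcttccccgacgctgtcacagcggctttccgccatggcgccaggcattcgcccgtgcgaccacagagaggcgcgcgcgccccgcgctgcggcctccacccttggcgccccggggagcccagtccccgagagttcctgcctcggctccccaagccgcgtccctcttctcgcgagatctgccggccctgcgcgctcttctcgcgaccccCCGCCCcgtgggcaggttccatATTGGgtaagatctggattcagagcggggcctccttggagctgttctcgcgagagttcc

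The Map2k6 window held none of the 6 motifs, had 50% G and C and 14 CpG. The Map2k3 window held 4 GC boxes and 1 CCAAT box, with 68.0% G and C and 28 CpG. The Mapk14 window held 1 of each of these 2 motifs, with 68.7% G and C and 33 CpG. Of the 32544 distinct windows of 300 bases, 35.9% held a GC box, 37.4% a CCAAT box, 1.8% a CRE, 5.2% an AP-1 site, 7.2% an E-box and 13.6% a TATA box, and the medians were 53.0% G and C and 7 CpG. The 2 further listed starts of Map2k6 had 46.3% and 49.7% G and C, with 1 GC box in the second window and 1 TATA box in the third. The second listed start of Mapk14 had 50% G and C, 18 CpG and none of the 6 motifs. A match is only a run of letters.

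The supplement names the third of 3 siRNAs as the one selected, and no source ties a number to the sequenced libraries. Its antisense strand is shown with the seed, bases 2 to 8, in capitals, because a seed can pair with transcripts other than the target.
siPkm2 #3 antisense strand: uGUUUCUCcagacagcaugtt
Site in Mapk11: ccccttgccttGAGAAACtctacacacac
The capitals in the second line are the 7 bases that pair with the seed. Among the longest annotated 3′ untranslated regions of the 9 genes, that of Mapk11 alone held this site, at base 118 of 1251, while 16.4% of the 13202 tested genes with such a region held it. Neither Map2k6 nor Mapk12, the 2 genes whose siPkm2 libraries were all lower in CPM, held it in that region. Only antisense seeds and these regions were searched, and whether a seed acted on any of the 9 genes was not tested. The seed site of siPkm2 #2 occurred in Mapk8, that of siPkm2 #1 in none of the 9, and that of the siNC antisense strand in Mapk13.

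Levels of different genes were compared in TPM, which is per length. In siNC the order of mean TPM was Mapk3 (142 ± 6.46), Map2k3 (63.5 ± 21.6), Mapk14 (32.4 ± 6.67), Mapk9 (28.2 ± 8.24), Mapk8 (24.9 ± 3.46), Mapk13 (16.6 ± 14.8), Mapk12 (8.32 ± 2.79), Map2k6 (4.75 ± 2.06) and Mapk11 (1.22 ± 0.381), each as mean ± SD of 3 libraries. From Mapk14 to Map2k6 each gene overlapped the next in the order, whereas Mapk3, Map2k3 and Mapk14 were apart from each other and Mapk11 lay below the rest. In siPkm2 the order of the means was the same, at 134, 88.1, 48.2, 27.4, 24.7, 10.04, 4.76 and 1.34 TPM, with Mapk11 last at 0.89 to 1.59 TPM. There, Mapk14 no longer overlapped Mapk9, and Mapk9 with Mapk8 and Map2k6 with Mapk11 were the neighbours that overlapped.

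edgeR's quasi-likelihood test was run across 15269 genes, first without and then with the replicate number as a block, because libraries with the same number deviated together. Without the block, 0 of the 9 genes passed an adjusted p of 0.05, as did 0% of all genes. At an unadjusted p under 0.05 the counts were 3 of 9 and 2690 of all genes. DESeq2's Wald test without a block passed 2 of the 9, Map2k6 and Mapk14, against 829 of the 15419 genes given an adjusted p there (5.38%). With the block, 2 of the 9 genes passed as higher, Mapk14 and Map2k3, against 12.3% of all genes, and 1 as lower, Map2k6, against 10.8% of all genes. Map2k6 alone also met the study's threshold of a fold over 2, which 5.83% of all genes met with the block. In the CPM of single libraries, siPkm2 lay wholly above siNC in Mapk14 and Map2k3 (2 of 9 genes, against 12% of all genes) and wholly below it in Map2k6 and Mapk12 (2 of 9, against 12.3%). With 3 against 3 libraries an exact two-sided permutation test cannot go below p = 0.1, which is the value of these 4 genes.

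**Figure D1:**
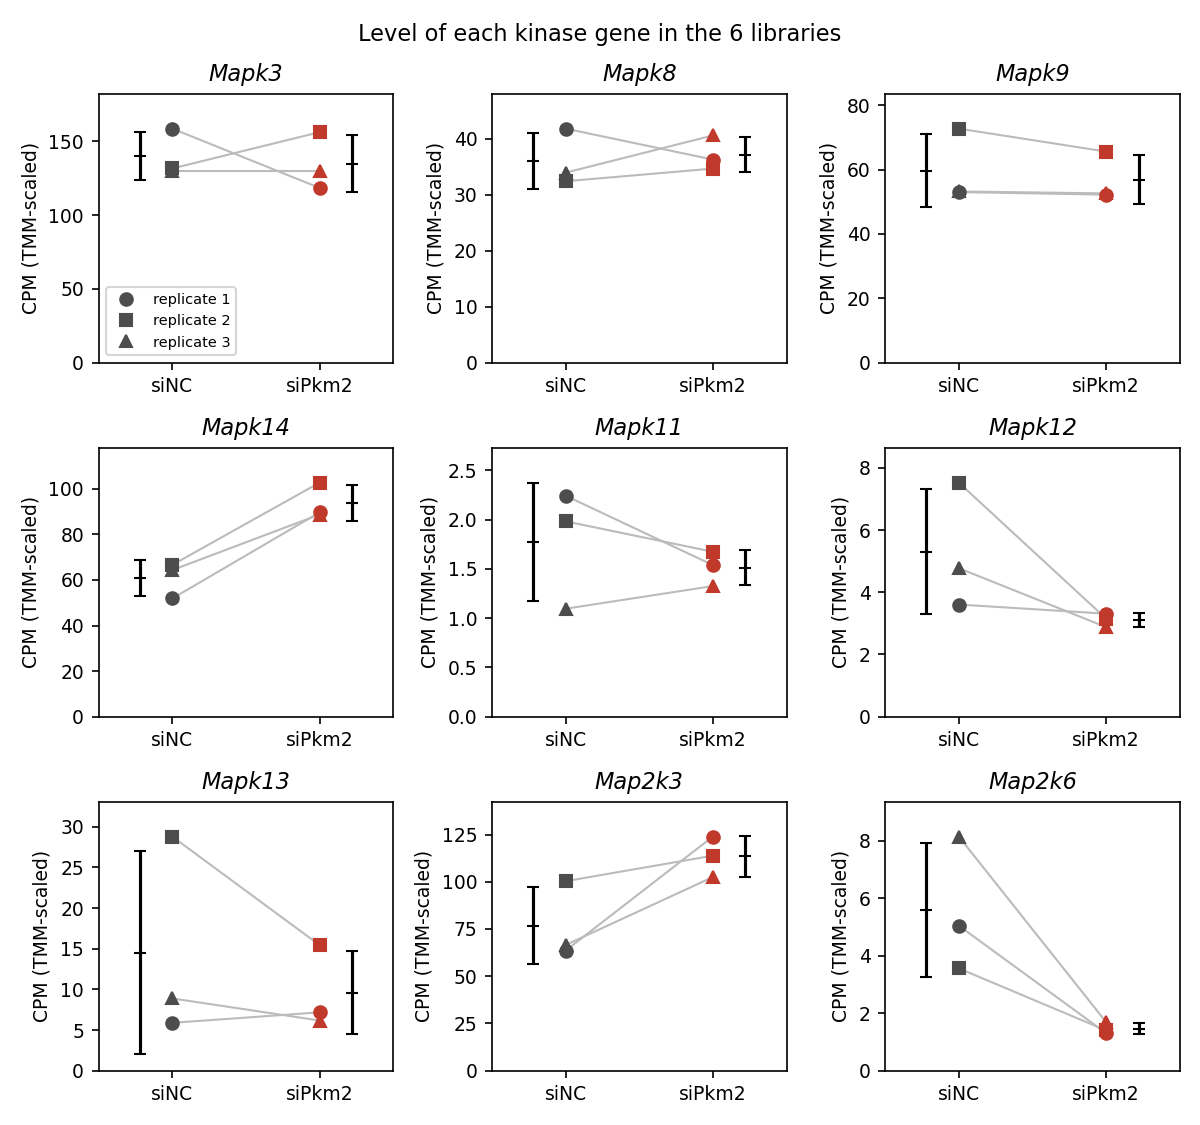
Level of each of the 9 genes in CPM (linear axis from 0), by group, with 1 point for each library, grey lines joining libraries of the same replicate number, and black marks giving the mean ± SD of 3 libraries. The siNC and siPkm2 points do not overlap in Mapk14, Map2k3, Map2k6 and Mapk12, and Mapk13 is highest in replicate 2 of both groups.

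In the ERK family, Mapk3 had 159, 132 and 129.9 CPM across siNC replicates 1, 2 and 3, compared with 118, 156 and 129.9 CPM for siPkm2. The groups overlapped, with siPkm2 lower in pair 1, higher in pair 2 and level with siNC in pair 3. Mean levels were 140.0 ± 16.1 CPM for siNC against 135 ± 19.4 CPM for siPkm2 (SD, n = 3 each). The log2 fold change was -0.05 (standard error 0.17, edgeR adjusted p = 0.902) and -0.06 with the block (standard error 0.14, edgeR adjusted p = 0.786). Its sign turned to 0.05 without siNC replicate 1 and to 0.03 without siPkm2 replicate 1.

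In the JNK family, Mapk8 had 41.8, 32.4 and 33.9 CPM across siNC replicates 1, 2 and 3, compared with 36.3, 34.7 and 40.6 CPM for siPkm2. All siPkm2 values lay within the siNC range. Its log2 fold change was 0.04 (standard error 0.16, edgeR adjusted p = 0.915), a sign that turned under upper-quartile scaling, on the TPM scale and without siNC replicate 2 or siPkm2 replicate 3. Mapk9 was at 53.0, 72.7 and 53.2 CPM in siNC and at 52.2, 65.6 and 52.6 CPM in siPkm2. Replicate 2 was the highest library of both groups, and each siPkm2 library was slightly below its partner in CPM. In TPM, siPkm2 was above siNC in pair 1, by a log2 ratio of 0.10, and below it in pairs 2 and 3. The log2 fold change of Mapk9 was -0.07 (standard error 0.18, edgeR adjusted p = 0.884), turning to 0.10 without siNC replicate 2, and -0.06 with the block (standard error 0.08, edgeR adjusted p = 0.585). Together the JNK genes summed to 53.1 ± 5.86 TPM in siNC and 52.1 ± 4.26 TPM in siPkm2 (SD, n = 3), with an exact two-sided permutation p of 0.7.

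Mapk14 encodes p38α, the broadly expressed form of p38 and its main form in most tissues. Across siNC replicates 1, 2 and 3 it had 51.9, 66.6 and 64.3 CPM, and across siPkm2 89.6, 103 and 88.7 CPM. Every siPkm2 library exceeded every siNC library, and the log2 ratio within pairs 1, 2 and 3 was 0.79, 0.63 and 0.46. Mean levels were 60.9 ± 7.94 CPM for siNC against 93.7 ± 7.85 CPM for siPkm2 (SD, n = 3 each). The log2 fold change was 0.62 (standard error 0.15, edgeR adjusted p = 0.136). With the replicate block it was 0.63 (standard error 0.09, edgeR adjusted p = 0.016), so Mapk14 rose in that fit. Without replicate 2 of both groups it was 0.62 with the block (edgeR adjusted p = 0.00442). That fit, on fewer libraries, passed 5941 of all genes, against 3524 with all 6 libraries. A lower adjusted p there is thus not particular to the genes described here.

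Mapk11, Mapk12 and Mapk13 encode p38β, p38γ and p38δ. Mapk12 was at 3.60, 7.52 and 4.77 CPM in siNC and at 3.31, 3.15 and 2.88 CPM in siPkm2. The siPkm2 values were all lower and lay close together, but the gap to the lowest siNC library was small. Its log2 fold change was -0.77 (standard error 0.34, edgeR adjusted p = 0.304) and -0.71 with the block (standard error 0.28, edgeR adjusted p = 0.115). It was -0.42 without siNC replicate 2, the highest library, in the fit with no block (edgeR adjusted p = 0.446). On the TPM scale the groups overlapped, at 5.15, 10.4 and 9.43 in siNC and 4.03, 4.16 and 6.08 in siPkm2. The estimated counts of Mapk12 were partly fractional, and the count per TPM relative to other genes was lowest in replicate 3 of both groups, where it was 0.79 and 0.70 of the gene's own mean. Its highest over lowest value across libraries was 1.67, against a median of 1.10 for genes with at least 100 counts in every library.

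Mapk13 was at 5.89, 28.8 and 8.89 CPM in siNC and at 7.18, 15.5 and 6.17 CPM in siPkm2. It was highest in replicate 2, by 3.90-fold over the mean of replicates 1 and 3 in siNC and by 2.31-fold in siPkm2. In these libraries chondrocyte markers were lowest, and the macrophage marker sum, made mostly of Cd68 and Cd14, was highest. The log2 fold change of Mapk13 was -0.60 (standard error 0.66, edgeR adjusted p = 0.7), turned to 0.38 without siNC replicate 2, and was -0.41 with the block (standard error 0.25, edgeR adjusted p = 0.266). With replicate 2 of both groups left out it was -0.13 with the block (edgeR adjusted p = 0.686). Mapk11 was at 2.24, 1.98 and 1.10 CPM in siNC and at 1.54, 1.67 and 1.33 CPM in siPkm2, on 25 to 56 estimated counts in each library. These values overlapped, and the log2 fold change of -0.23 (standard error 0.38, edgeR adjusted p = 0.812) was not distinguishable from 0 at this depth. It was -0.02 without siNC replicate 1 and -0.48 without siNC replicate 3.

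Map2k3 and Map2k6 encode MKK3 and MKK6, the closely related kinases that phosphorylate p38. Map2k3 had 63.5, 100.3 and 66.5 CPM across siNC replicates 1, 2 and 3, compared with 124, 114 and 103 CPM for siPkm2. All siPkm2 libraries were higher, although siNC replicate 2 came close to the lowest of them. The log2 ratio within pairs 1, 2 and 3 was 0.96, 0.18 and 0.62. Mean levels were 76.8 ± 20.4 CPM for siNC against 113 ± 10.7 CPM for siPkm2 (SD, n = 3 each). The log2 fold change was 0.56 (standard error 0.21, edgeR adjusted p = 0.238). With the replicate block it was 0.59 (standard error 0.16, edgeR adjusted p = 0.0493), just past the threshold. The call was lost on log2(TPM + 1) with the block in limma (log2 difference 0.52, adjusted p = 0.1). Without replicate 2 of both groups, the log2 fold change with the block was 0.79 (edgeR adjusted p = 0.00191), in the fit that passed 5941 of all genes.

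Map2k6 was at 5.04, 3.56 and 8.14 CPM in siNC and at 1.31, 1.40 and 1.69 CPM in siPkm2, from 88 to 186 estimated counts in siNC and 28 to 37 in siPkm2. The highest siPkm2 library was below the lowest siNC library, and siPkm2 was lower in all 3 pairs, by log2 ratios of -1.95, -1.35 and -2.27. Mean levels were 5.58 ± 2.34 CPM for siNC against 1.47 ± 0.201 CPM for siPkm2 (SD, n = 3 each). The log2 fold change was -1.93 (standard error 0.39, edgeR adjusted p = 0.122). Map2k6 fell with the replicate block, where the log2 fold change was -1.86 (standard error 0.27, edgeR adjusted p = 0.0151). Without replicate 2 of both groups it was -2.12 with the block (edgeR adjusted p = 0.0014), in the fit that passed 5941 of all genes. With each library left out in turn and no block, it stayed between -2.16 and -1.55.

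**Figure D2:**
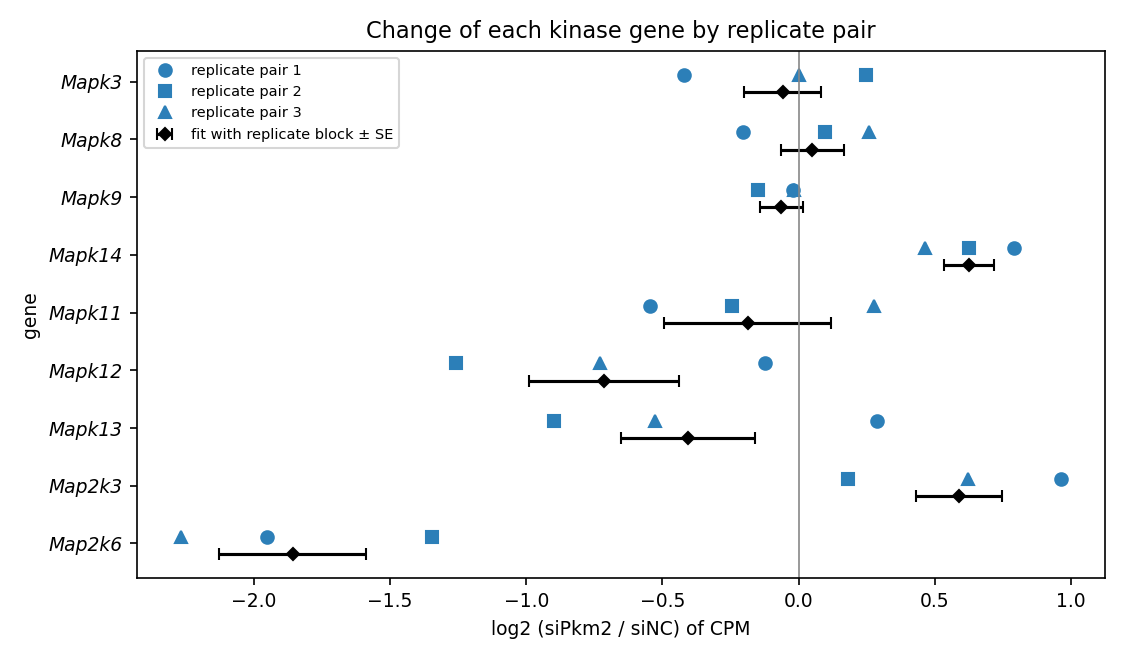
Difference of each gene within replicate pairs 1, 2 and 3 as the log2 ratio of CPM, siPkm2 over siNC, with the estimate of the fit with the replicate block and its standard error in black. The 3 pairs of Mapk14 and Map2k3 lie right of 0 and those of Map2k6 left of -1.3, while the pairs of Mapk3, Mapk8, Mapk11 and Mapk13 fall on both sides.

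The make-up of each family was computed as the share of its summed TPM. Mapk14 held 66.8%, 45.0% and 63.1% of the p38 TPM in siNC replicates 1, 2 and 3 and 78.1%, 71.2% and 77.6% in siPkm2. All siPkm2 shares were higher, and the mean difference was 17.3 percentage points. It was 10.7 points without siNC replicate 2 and 11.6 points on shares of CPM. Mapk12 held less in siPkm2, at 14.4% ± 2.09 against 7.63% ± 2.54 (SD, n = 3 each), and its shares did not overlap either. Mapk13 held 15.4%, 40.6% and 18.8% in siNC and 13.1%, 21.4% and 10.6% in siPkm2, so that siNC replicate 2 was the only library in which it came near Mapk14. The summed p38 TPM was 58.6 ± 22.6 in siNC and 64.2 ± 11.5 in siPkm2 (SD, n = 3), with an exact two-sided permutation p of 0.8.

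Of the p38 MAP2K TPM, Map2k3 held 92.2%, 96.5% and 88.7% in siNC and 98.8%, 98.5% and 98.2% in siPkm2. The ratio of Map2k3 to Map2k6 was 11.9, 27.5 and 7.82 in siNC and 79.2, 66.2 and 54.7 in siPkm2. Both the shares and the ratios of the groups were fully apart. Mapk8 and Mapk9 shared the JNK TPM about evenly, with Mapk8 at 47.5% ± 9.72 in siNC and 47.8% ± 7.89 in siPkm2 (SD, n = 3). Over the 8 shares tested, those of Mapk14, Mapk12, Map2k3 and Map2k6 had an exact two-sided permutation p of 0.1, the smallest possible, and 0.2 after Benjamini-Hochberg adjustment over the 8. The shares of a family sum to 100%, so they are not independent of each other.

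**Figure D3:**
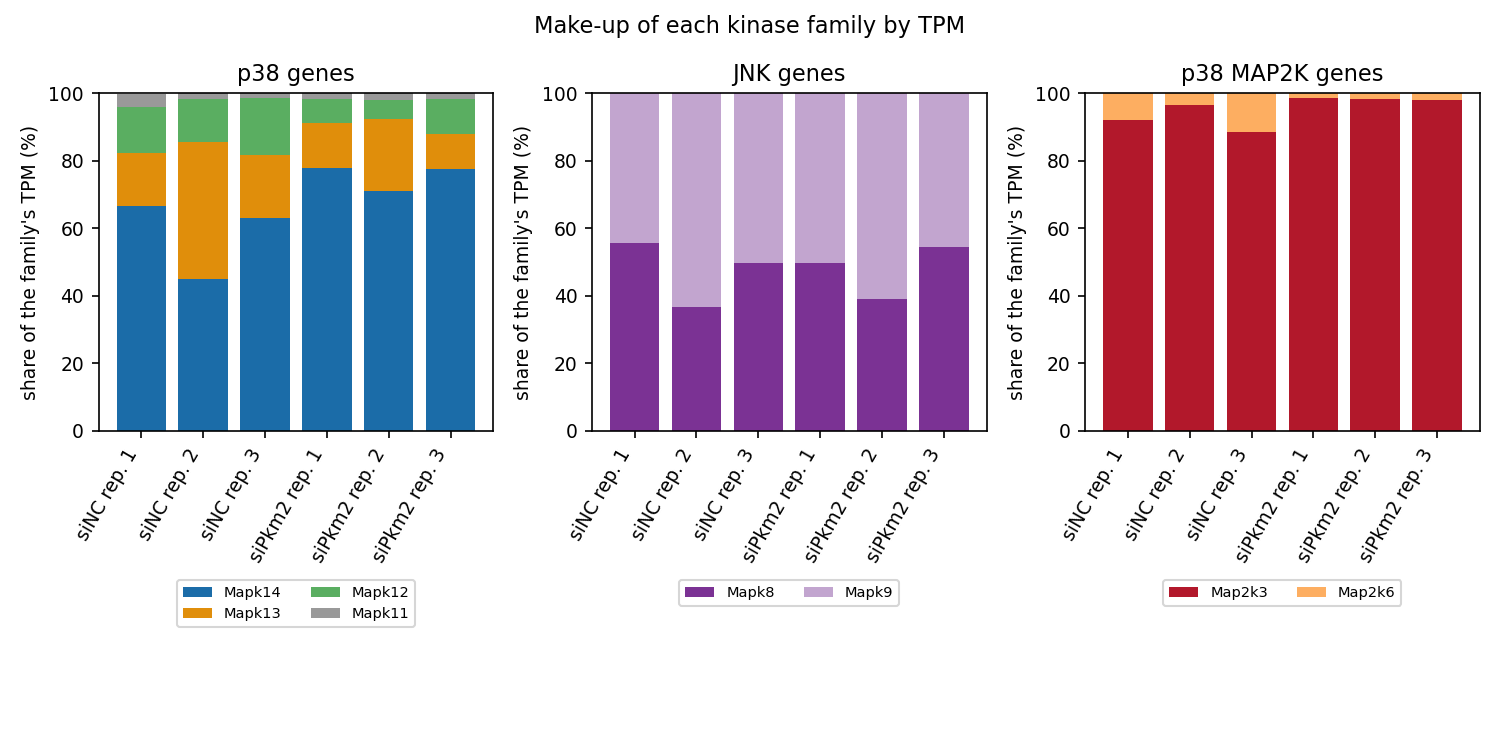
Share of each gene in the summed TPM of its family, in percent, for the p38 genes, the JNK genes and the p38 MAP2K genes, with 1 bar for each library. Mapk14 fills 71.2% to 78.1% of the p38 bar in siPkm2 and 45.0% to 66.8% in siNC, and the Map2k6 segment shrinks from 3.51% to 11.3% in siNC to 1.25% to 1.80% in siPkm2.

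The rest of the cascade was described with 6 lists of 98 genes in all, of which 89 were tested. With the block, 16 were higher and 4 lower in siPkm2, which is 22.5% of those tested. Without the block 0 passed by edgeR and 1 by DESeq2, Rps6ka4. All genes called with the block came to 12.3% higher and 10.8% lower, or 3524 of 15269 genes. The share called in the lists was thus close to that of all genes. The counts of each list below are to be read beside the same 12.3% and 10.8%. Among the other MAP kinases and MAP2Ks, 2 of 9 tested genes were higher and 0 lower with the block. Map2k4 encodes MKK4, an activator of JNK that can also act on p38. It was at 57.8, 55.8 and 58.3 CPM in siNC and 77.3, 72.2 and 75.0 CPM in siPkm2, without overlap, with a log2 fold change of 0.39 with the block (standard error 0.08, edgeR adjusted p = 0.0245). Map2k1 (MEK1, an activator of ERK) averaged 112 CPM for siNC against 146 CPM for siPkm2, with overlapping libraries, and its log2 fold change with the block was 0.39 (standard error 0.08, edgeR adjusted p = 0.0263).

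In the MAP3K tier, 6 of 26 tested genes were higher and 2 lower with the block. Map3k7 (TAK1, the kinase that carries the IL-1 signal to the MAP2Ks) averaged 80.3 ± 4.47 CPM for siNC against 112 ± 12.1 CPM for siPkm2 (SD, n = 3 each). Its siPkm2 libraries were all above siNC, and its log2 fold change with the block was 0.48 (edgeR adjusted p = 0.0189). Map3k1 and Taok3 were also higher in every siPkm2 library, by 0.48 and 0.59 on the log2 scale with the block (edgeR adjusted p = 0.0225 and 0.0264). Map3k20, which encodes ZAK, a stress-activated MAP3K, was lower, at 55.3, 109 and 76.2 CPM in siNC and 45.1, 57.0 and 41.4 CPM in siPkm2 (log2 fold change with the block -0.70, edgeR adjusted p = 0.0274), and 1 siPkm2 library lay within the siNC range.

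Of the kinases that MAP kinases switch on, 2 of 11 were higher and 1 lower with the block. Rps6ka4 (MSK2, a nuclear kinase activated by ERK and p38), which the table writes in capitals under ENSMUSG00000118668, had 39.8, 35.3 and 36.9 CPM across siNC and 80.3, 71.3 and 70.7 CPM across siPkm2. The groups were far apart, and its log2 fold change with the block was 0.99 (standard error 0.08, edgeR adjusted p = 0.00942). Mapkapk2 (MK2, the best-known p38 target kinase, which stabilizes cytokine transcripts) was at 136, 177 and 105 CPM in siNC and 194, 235 and 175 CPM in siPkm2. It was higher in each pair, although siNC replicate 2 overlapped the lowest siPkm2 library, and its log2 fold change with the block was 0.55 (standard error 0.10, edgeR adjusted p = 0.0202). Rps6ka2 (RSK3, a target kinase of ERK) averaged 16.9 ± 6.50 CPM for siNC against 11.3 ± 3.66 CPM for siPkm2 (SD, n = 3 each), with overlapping libraries, and its log2 fold change with the block was -0.56 (edgeR adjusted p = 0.0286).

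Of the scaffolds and adaptors, 3 of 15 were higher and 1 lower with the block. Lamtor3 (MP1, which holds MEK1 and ERK1 on late endosomes) and Iqgap1 (a scaffold of the ERK cascade) were higher in every siPkm2 library than in any siNC library, with log2 fold changes of 0.58 and 0.52 with the block (edgeR adjusted p = 0.0186 and 0.0406). Arrb1 was higher by 0.66 and Mapkbp1, a JNK-binding protein, was lower, at -0.60, on the same scale (edgeR adjusted p = 0.0193 and 0.0176), both with overlapping libraries. Of the phosphatases that switch MAP kinases off, 1 of 14 was higher, Dusp16, which acts on JNK and p38 (log2 fold change with the block 0.71, edgeR adjusted p = 0.0225). Its libraries overlapped between the groups. Of the substrate transcription factors, 2 of 14 were higher, Max and Mef2d (0.43 and 0.71 with the block, edgeR adjusted p = 0.0198 and 0.0239), and both had no overlap between groups. Mef2d encodes a p38 substrate. The median log2 fold changes of the 6 lists with the block ran from 0.00 to 0.21, beside -0.01 for all genes tested and -0.06 for the 9 members.

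**Figure D4:**
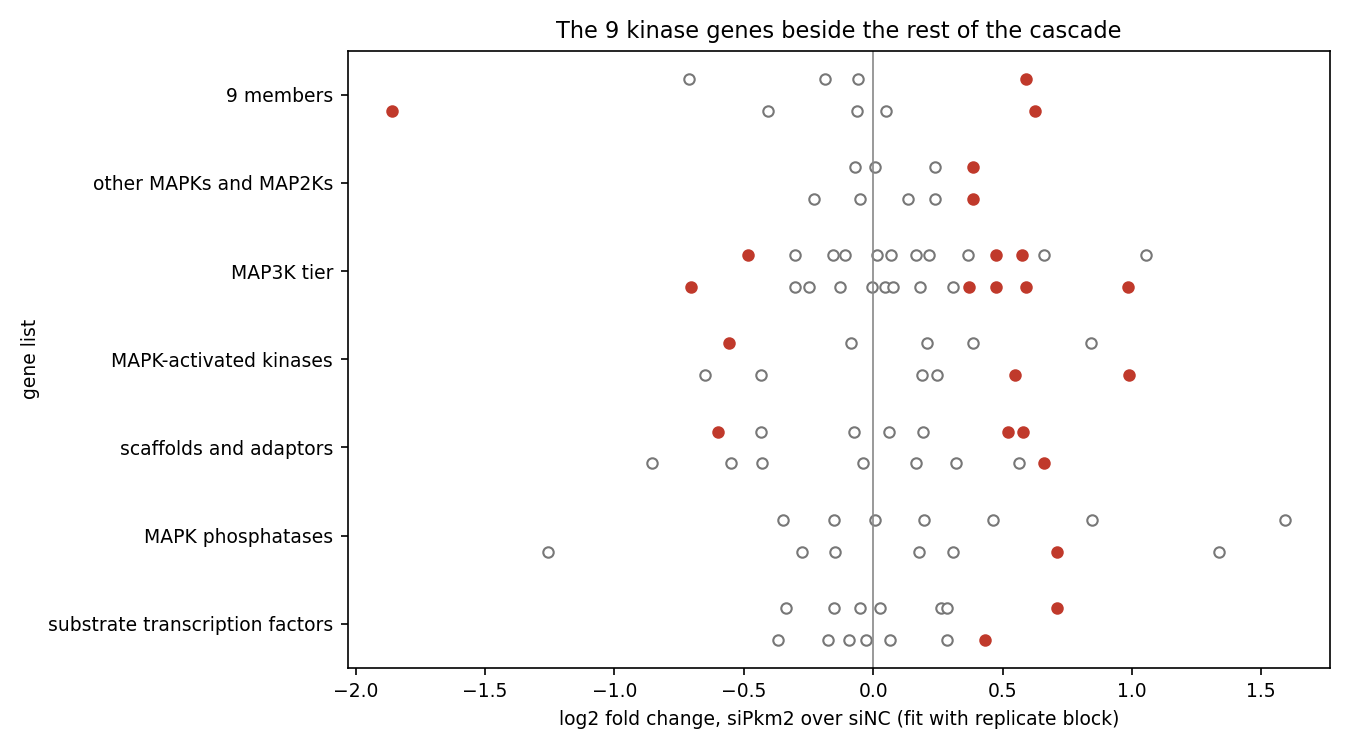
Log2 fold change, siPkm2 over siNC, in the fit with the replicate block, for the 9 genes and the 6 lists of the cascade, with 1 point for each gene, spread vertically for legibility, and red points marking an adjusted p under 0.05. Map2k6, at -1.86, is the leftmost point of the plot, and 16 of the 20 red points outside the 9 members lie right of 0. Of all genes tested, 12.3% passed as higher and 10.8% as lower in this fit.

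For 3 members, the tested genes with the most similar profile were sought by Pearson's r of log2(CPM + 0.5) over the 6 libraries. Those nearest to Mapk14 were Apba3 (r = 0.994), Tmed8 (r = 0.994) and Fbxo42 (r = 0.993), and 137 genes reached 0.95 or more. For Mapk3 the nearest were Gm5776, Exosc7 and Inka1 (r = 0.954, 0.947 and 0.937), and for Mapk8 Gm5054, Gm5822 and Gm14760 (r = 0.957, 0.949 and 0.949), and 1 gene reached 0.95 for each. These values rest on 6 points that share the split into groups and the split by replicate number.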

How the data were processed

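RNA-seq libraries of chondrocytes transfected with siNC (n = 3) or siPkm2 (n = 3) were analysed from one table of 55416 genes. The authors deposited estimated counts for each library, of which 86.9% were whole numbers. They also deposited TPM, scaled per length within each library, and these equalled the TPM of the single-library files. Columns with the authors' own fold change, log2 fold change, p-value and adjusted p-value, and 2 group means of TPM, were not used. The submitters' processing notes name mm9 and edgeR, and the aligner, counter and annotation are not given in the sources used here. Of the identifiers, 94.0% were in GENCODE M21 (GRCm38), which supplied positions, while RefSeq supplied promoter windows.

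Estimated counts were rounded, filtered with filterByExpr and scaled by TMM in edgeR 4.0.16 (R 4.3.3). The quasi-likelihood F test compared siPkm2 with siNC, and p-values were adjusted after Benjamini and Hochberg across the 15269 genes retained, with a threshold of 0.05. A self-test on artificial counts, built from the mean levels of the retained genes, ran after the real fits. Alternatives were other scaling and filters, DESeq2 1.42.0, limma 3.58.1 on log2(TPM + 1) and log2(TPM + 0.1), single libraries left out, and a replicate block. Same-numbered libraries shared their deviations from group means (r = 0.66, 0.76 and 0.65), whereas differently numbered ones reached at most 0.16, so the numbers pair the libraries. Within groups, 54.0% to 73.6% of genes differed by more than sampling noise, so no library was a copy of another. Depth of 22317065 to 25691096 counts limits mainly Mapk11 and Map2k6. Shares of family TPM were compared by exact permutation (scipy 1.17.1).

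The 9 genes, the lists and the tests were chosen with earlier results of these data known. Named genes were all 9 members, Pkm, up to 4 genes of each list with the lowest p-value among those passing with the block, and the 3 nearest profiles of Mapk3, Mapk8 and Mapk14. Symbols were matched exactly or, for Rps6ka4, without regard to capitals. One gene of the lists is not reported here by name.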

Additional observations from a re-analysis of the deposited data

How the results depend on the processing

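Without a block, 0 genes passed in all; 3 passed under upper-quartile factors, 3 with at least 10 counts in every library, 9 without a filter, 1 by limma on log2(TPM + 1) or log2(TPM + 0.1), and 829 by DESeq2. Leaving out single libraries gave 0 to 105, the latter without siNC replicate 2. With the replicate block 3524 passed, and 3889 by DESeq2, 5941 without replicate 2 of both groups and 2411 by limma on log2(TPM + 1), the last an alternative chosen after seeing the data. Of the 9 members, 0 passed without a block except 2 by DESeq2; with the replicate block 3 passed, as with DESeq2 or without replicate 2 of both groups, and 2 by limma. The cascade lists went from 0 to 20, 25, 41 and 11 calls in those 4 fits with the block, to 1 by DESeq2 without it, and to 0 to 1 with single libraries left out.

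Map2k6, Mapk14, Map2k3, Mapk12 and Mapk11 kept their sign in all 17 alternatives, though Mapk11 ran from -0.478 to -0.017. With single libraries left out, the log2 fold change of Mapk13 ran from -1.118 to 0.383 and that of Mapk9 from -0.183 to 0.099, both turning without siNC replicate 2. That of Mapk3 ran from -0.17 to 0.051, turning without replicate 1 of either group, and that of Mapk8 from -0.025 to 0.172, turning without siNC replicate 2 or siPkm2 replicate 3. Mapk8 also turned to -0.022 under upper-quartile factors and to -0.007 by limma on log2(TPM + 1), with or without the replicate block, or log2(TPM + 0.1). The difference in the Mapk8 share of JNK TPM, 0.37 percentage points, ran from -4.99 to 4.69 with single libraries left out. The shares of Mapk14 and Map2k3 kept their direction under the alternatives tried. The cause of these changes was not tested. The 3 pairs allow no exact p below 0.25.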
